A study of Mus musculus with 12 samples.

Results

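The genes Pmepa1, Smad6, Smad7, Tgfb1, Tgfbr2, Id1, Id2, Id3, Bmp2 and Bmpr1a, 10 in all, were taken from the 24391 gene symbols of each deposited table because they carry or report signalling by transforming growth factor beta (TGF-beta) and the bone morphogenetic proteins (BMPs). The 10 were chosen with earlier results of these data known, so counts of calls among them are a description. All 10 were found in all 12 tables, and all 10 passed the filter on low values. Scraped colon epithelial cells of C57BL/6 mice at 18 weeks of age were sequenced in 3 groups of 4 libraries. The control group is labelled only as control. The AOM/DSS group received azoxymethane (AOM), a carcinogen, and dextran sulfate sodium (DSS), a polymer that inflames the colon, and the curcumin group received AOM and DSS with curcumin, a polyphenol of turmeric. The labels give no dose or sex and do not say that each library is a separate mouse, so p-values measure the spread between libraries, which may be technical. Tumours of the right colon, and the colon's proximal part, had been removed first, and the scrapings came from what was left.

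TGF-beta and BMP ligands bind pairs of type I and type II receptor kinases at the cell surface, which phosphorylate SMAD proteins that enter the nucleus with SMAD4 and bind DNA. TGF-beta uses mainly SMAD2 and SMAD3, and BMPs use SMAD1, SMAD5 and SMAD9. In the colon, BMP signalling is high towards the mucosal surface and low at the crypt base, where it is held back by secreted antagonists, and TGF-beta limits the growth of epithelial cells. Among the genes here, Tgfb1 and Bmp2 encode ligands, Tgfbr2 the type II TGF-beta receptor and Bmpr1a a type I BMP receptor. Id1, Id2 and Id3 encode inhibitors of basic helix-loop-helix factors and are classic BMP targets. Smad6, Smad7 and Pmepa1 encode feedback inhibitors that the pathways induce: SMAD6 acts mainly on the BMP branch, SMAD7 on both, and PMEPA1 is a membrane protein that keeps SMAD2 and SMAD3 from the TGF-beta receptor.

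The values are FPKM, reads normalised for gene length and for library depth, so levels can be set side by side between genes. Read totals recovered from the tables ran from 5567988 to 15968416 per library. Epithelial markers were high in all libraries, with a sum over the 8 markers of 5837 to 10325 FPKM, and Epcam was at a mean of 746, 702 and 715 FPKM in control, AOM/DSS and curcumin. Sums over the markers of other cells were far smaller: 2.06 to 28.1 FPKM for the 8 fibroblast markers, 7.75 to 23.0 for the 6 smooth muscle markers, 1.91 to 8.18 for the 6 endothelium markers, 2.38 to 17.0 for the 6 T cell markers and 27.4 to 76.5 for the 8 macrophage markers. The largest was that of the 6 B and plasma cell markers, at 95.4 to 212 FPKM. Most of it was Sdc1, at a mean of 99.7, 109 and 105 FPKM in control, AOM/DSS and curcumin. Without Sdc1, a split made after seeing the values, the other 5 summed to 3.15 to 98.4 FPKM. Tagln was the highest smooth muscle marker, at a mean of 9.54, 9.74 and 8.12 FPKM in control, AOM/DSS and curcumin, where no other exceeded 2.24. In GENCODE M21, 67.9% of its exon bases are shared with genes on the opposite strand. The strand setting is not given, so reads of those genes may be in its value. The libraries also differed by GC content. The 5 called GC-rich here gave higher values to genes of high GC content; they were replicate 0 of every group and replicate 1 of both treated groups. The other 7, called AT-rich, gave higher values to genes of low GC content. In bulk libraries such as these, fewer cells of a type and less RNA per cell cannot be told apart.

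Promoter sequence was at hand for 6 of the 10 genes (Bmpr1a, Id2, Id3, Smad6, Tgfb1 and Tgfbr2), from RefSeq on build GRCm38.p6, which is later than the mm9 build of the expression tables. The 250 bases before the start site are shown for 3 of them, the ligand Tgfb1, the receptor Tgfbr2 and the target Id3, so that the reader can see the sequence that SMADs could meet there. Capitals mark CAGAC or its reverse complement GTCTG, the short site of SMAD3 and SMAD4, and GGCGCC, a GC-rich site of SMAD1 and SMAD5, which is its own reverse complement. The windows are chr7:25686752-25687001 on the plus strand for Tgfb1, chr9:116175364-116175613 on the minus strand for Tgfbr2 and chr4:136143572-136143821 on the plus strand for Id3, each printed 5′ to 3′ along its gene.
Tgfb1: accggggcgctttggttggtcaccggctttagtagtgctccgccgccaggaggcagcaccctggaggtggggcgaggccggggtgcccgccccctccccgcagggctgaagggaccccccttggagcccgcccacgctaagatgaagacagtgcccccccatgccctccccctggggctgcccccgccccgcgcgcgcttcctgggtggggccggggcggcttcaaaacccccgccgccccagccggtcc
Tgfbr2: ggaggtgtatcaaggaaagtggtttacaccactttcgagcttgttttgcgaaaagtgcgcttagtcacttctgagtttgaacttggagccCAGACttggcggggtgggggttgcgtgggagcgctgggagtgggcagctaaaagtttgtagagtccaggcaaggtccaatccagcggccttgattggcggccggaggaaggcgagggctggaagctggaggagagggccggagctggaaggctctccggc
Id3: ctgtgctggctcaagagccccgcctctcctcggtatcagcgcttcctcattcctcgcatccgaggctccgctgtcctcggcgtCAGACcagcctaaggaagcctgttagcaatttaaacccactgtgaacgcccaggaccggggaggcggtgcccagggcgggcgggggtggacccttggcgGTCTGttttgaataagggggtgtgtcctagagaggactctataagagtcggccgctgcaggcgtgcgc
Id3 held CAGAC or GTCTG at 2 places and Tgfbr2 at 1, and the Tgfb1 window held neither motif. GGCGCC occurred in the windows of Id2 and Bmpr1a. Over all genes of the promoter table, 45.8% had CAGAC on either strand in at least 1 such window and 10.8% had GGCGCC, so 2 of 6 genes for each motif is a description of these letters and of no binding.

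The 10 genes spanned a wide range of levels. Over all 12 libraries Id1 was the highest, at a mean of 211 FPKM, and Id3 followed at 57.05. Bmp2, at 27.0 FPKM, led a middle group with Id2 (18.6), Tgfbr2 (18.5), Bmpr1a (17.8) and Smad7 (13.99). Pmepa1 (5.89), Smad6 (5.17) and Tgfb1 (1.59) were the lowest. Neighbours from Id2 to Bmpr1a in this order differed by less than their SDs over the libraries (5.42, 3.28 and 3.60 FPKM), and so did Pmepa1 and Smad6 (5.03 and 2.24 FPKM). The reads behind a value ran from 784 to 3326 per library for Id1, but only from 10 to 86 for Tgfb1. The 10 reads of Tgfb1 in control replicate 1, a level of 0.94 FPKM, have a 95% exact Poisson interval of 0.451 to 1.73 FPKM, which covers counting error only.

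**Figure D1:**
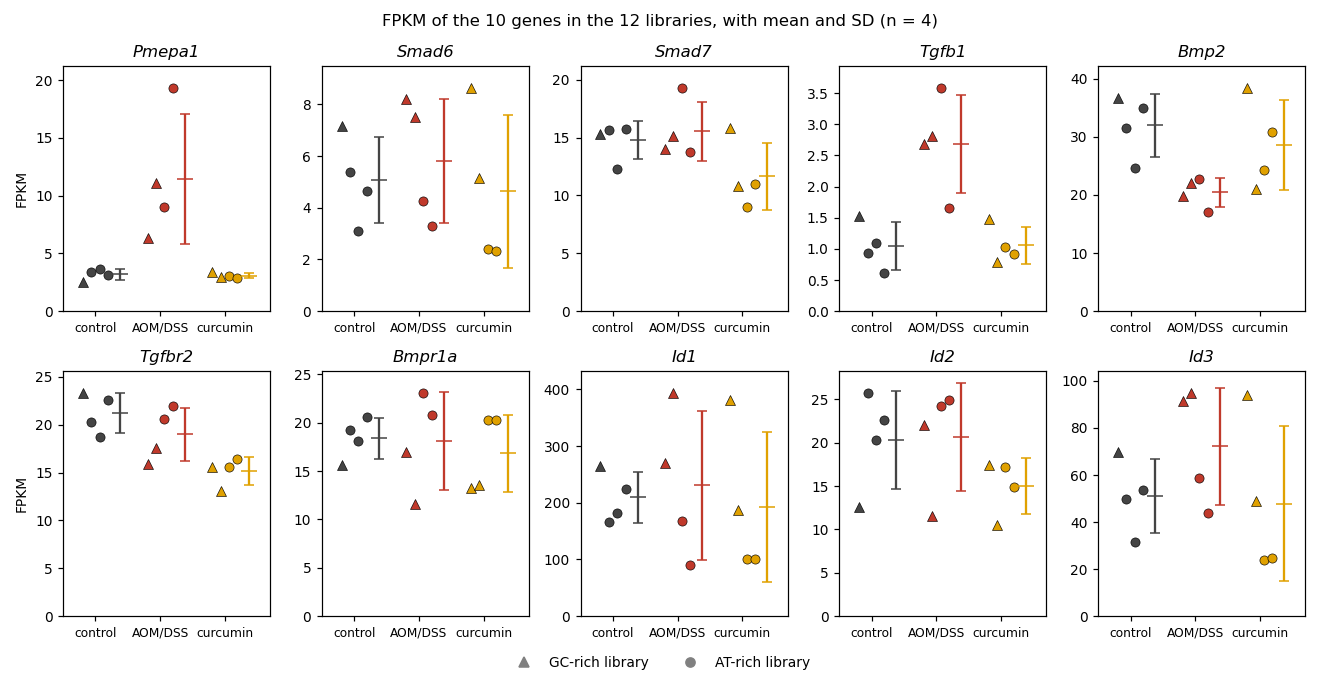
FPKM of each of the 10 genes (y axis, from 0, 1 panel per gene) in the 4 control, 4 AOM/DSS and 4 curcumin libraries, replicates 0 to 3 from left to right. Triangles are GC-rich and circles AT-rich libraries, and the bar beside each group is its mean and SD. All 4 AOM/DSS libraries lie above the other 8 for Pmepa1 and Tgfb1.

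Each comparison was tested gene by gene with limma on log2(FPKM + 1), over the 12052 genes with at least 1 FPKM in at least 4 libraries, and a gene is called changed below a Benjamini-Hochberg adjusted p of 0.05. Fold changes are differences on that log2 scale, where a low gene such as Tgfb1 shows less change than in FPKM. AOM/DSS against control asks what carcinogen and colitis changed, curcumin against AOM/DSS what curcumin changed on top, and curcumin against control how far curcumin libraries were from control. The first pair of comparisons shares the AOM/DSS libraries, so their values are set side by side and not counted as independent. In AOM/DSS against control, 1 of the 10 genes was called higher and 0 lower, where 1.27% of all tested genes were called (0.456% higher, 0.813% lower). With curcumin, 0 were called higher and 1 lower against AOM/DSS, where 1.08% of all genes were called (0.73% higher, 0.348% lower). Curcumin against control gave 0 limma calls among the 10, and 0 by voom on the recovered reads, where limma called 0.141% of all genes (0.0913% higher, 0.0498% lower). At an unadjusted p under 0.05 limma had 3, 5 and 1 of the 10 in the 3 comparisons, where 13.5%, 14.5% and 12.2% of all genes were under it. Values were above 0 for 6, 1 and 1 of the 10, and for 52.8%, 49.1% and 52.5% of all genes. The median log2 difference of the 10 was 0.04, -0.38 and -0.24 in these 3 comparisons, beside 0.02, -0.01 and 0.01 over all genes.

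**Figure D2:**
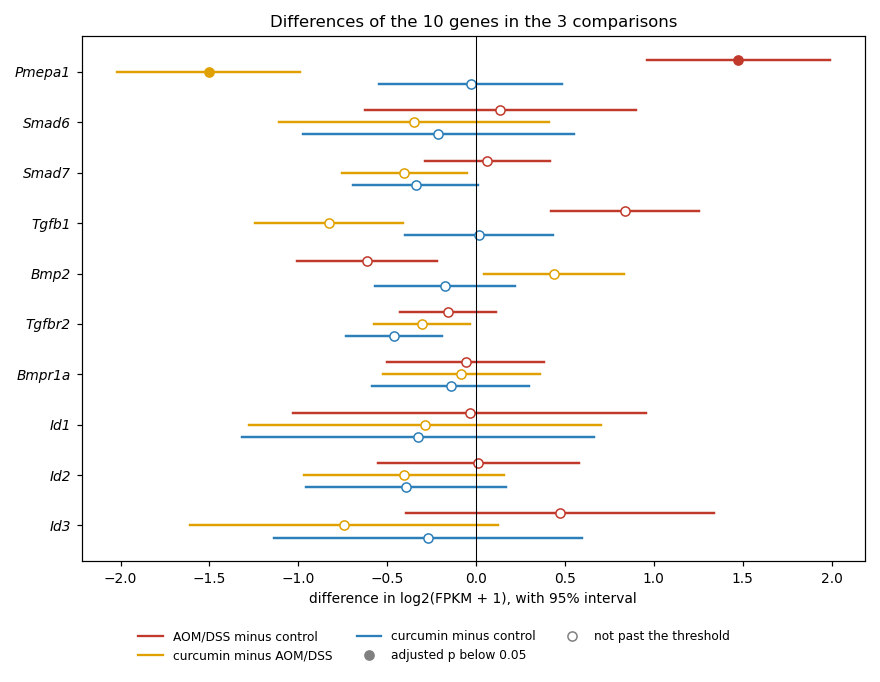
Difference in log2(FPKM + 1) of each of the 10 genes (x axis) in the 3 comparisons, with the 95% interval from limma as a line. Filled points passed an adjusted p of 0.05, which only Pmepa1 did, at 1.47 in AOM/DSS against control and -1.50 in curcumin against AOM/DSS.

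Pmepa1 was the only one of the 10 genes called changed. Its level was 2.53, 3.43, 3.67 and 3.11 FPKM in control replicates 0 to 3, then 6.30, 11.1, 9.004 and 19.3 in AOM/DSS, and 3.395, 2.96, 3.05 and 2.91 in curcumin. Every AOM/DSS library was above every control and every curcumin library, while control and curcumin libraries overlapped. The mean was 3.19 ± 0.494 FPKM (SD, n = 4) in control, 11.4 ± 5.61 in AOM/DSS and 3.08 ± 0.218 in curcumin. By limma, Pmepa1 rose by 1.47 in AOM/DSS against control (SE 0.24, adjusted p = 0.00994) and fell in curcumin against AOM/DSS, with a difference of -1.50 (SE 0.24, adjusted p = 0.0113). Curcumin differed from control by -0.03 (95% interval -0.55 to 0.48, limma adjusted p = 0.973). Complete separation of the 4 AOM/DSS libraries above the 4 controls was found for 2.38% of all tested genes, and separation of the 4 curcumin libraries below the 4 AOM/DSS libraries for 4.27%. The opposite, curcumin above, was found for 4.95% against AOM/DSS and for 3.72% against control, and for 0 of the 10 genes in either case.

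The rise of Pmepa1 was uneven within AOM/DSS. Its highest library, replicate 3, was 3.06 times its lowest, a wider spread than 92.6% of tested genes had in that group, whereas the 4 curcumin libraries lay within 1.17 times of each other. Without AOM/DSS replicate 3 the differences were 1.20 against control and -1.23 for curcumin, both still past the threshold (limma adjusted p = 0.00847 and 0.00702). In the fit of the AOM/DSS and control libraries alone, the difference of 1.47 no longer passed (adjusted p = 0.0565). Within the GC-rich libraries Pmepa1 was at 2.53 FPKM in the 1 control library, at 6.30 and 11.1 in AOM/DSS and at 3.395 and 2.96 in curcumin, and within the AT-rich ones all AOM/DSS values again lay above the rest. Fits of either kind of library alone, chosen after seeing the data, gave differences of 1.41 and 1.70 against control and -1.17 and -1.84 for curcumin, with no call at these sizes (limma adjusted p = 0.449, 0.102, 0.255 and 0.171).

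The 5 genes with the pattern most like that of Pmepa1 over the 12 libraries were found by Pearson r of log2(FPKM + 1) among the 10550 other genes with a mean of at least 2 FPKM. They were Scd1, a fatty acid desaturase (r = 0.93), Wfdc18, a secreted protein with a protease inhibitor fold (0.92), Il4ra, a subunit of the interleukin 4 receptor (0.91), the transcription factor Runx1 (0.90) and the keratin Krt14 (0.90). All 12 libraries are shared between these genes, so r describes the likeness and carries no test. The mean of at least 2 FPKM was taken over all 12 libraries, so low genes that were higher in AOM/DSS were favoured by it. Krt14 and Runx1 were such genes, as their means in control and in curcumin were below 2 FPKM. Krt14 was at 0.702 to 1.41 FPKM in control, at 1.23, 6.87, 1.37 and 11.1 in AOM/DSS replicates 0 to 3 and at 0.555 to 0.965 in curcumin, so that it was high in AOM/DSS replicates 1 and 3 alone. Wfdc18 went from a mean of 10.3 FPKM in control to 48.5 in AOM/DSS and 10.9 in curcumin. Among the other 9 members, r with Pmepa1 was highest for Tgfb1, at 0.67, and lowest for Bmp2, at -0.71.

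Tgfb1, the ligand of the TGF-beta branch, was low but followed the same order of groups. Its level was 1.53, 0.94, 1.096 and 0.615 FPKM in control replicates 0 to 3, 2.68, 2.81, 3.58 and 1.66 in AOM/DSS, and 1.48, 0.782, 1.04 and 0.921 in curcumin. All AOM/DSS libraries were above all control and all curcumin libraries, although AOM/DSS replicate 3, at 1.66, was close to control replicate 0, at 1.53. Separation above control was found for 2.38% of tested genes, and that of curcumin below AOM/DSS for 4.27%. The difference was 0.84 in AOM/DSS against control (SE 0.19) and -0.83 in curcumin against AOM/DSS (SE 0.19), and neither passed the threshold (limma adjusted p = 0.0519 and 0.0619). Over 12 other settings that kept this gene, the adjusted p ran from 0.031 to 0.141 against control and from 0.0188 to 0.0954 for curcumin, on either side of the threshold. Without AOM/DSS replicate 3, both comparisons passed (0.99, limma adjusted p = 0.0353, and -0.97, adjusted p = 0.0363).

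Markers of white blood cells, which make TGF-beta 1 too, were also higher in AOM/DSS for some libraries. The sum over the 8 macrophage markers, of which none was at 0 in every library, was 27.4 to 57.6 FPKM in control, 46.3 to 76.5 in AOM/DSS and 30.4 to 44.4 in curcumin. For the 6 T cell markers it was 4.25 to 5.74, 3.24 to 17.0 and 2.38 to 4.17 FPKM, and for the 6 B and plasma cell markers found it was 102 to 155, 119 to 212 and 95.4 to 163. Cd14 and Sdc1 held most of the macrophage and of the B and plasma cell sums. Without them, a split made after seeing the values, the other 7 macrophage markers summed to 2.79 to 9.50 FPKM in control, 7.42 to 21.6 in AOM/DSS and 2.13 to 9.30 in curcumin. The other 5 B and plasma cell markers summed to 9.70 to 34.2, 15.1 to 98.4 and 3.15 to 21.6 FPKM. Tgfb1, the T cell markers and the B and plasma cell markers all had their highest value in replicate 2 of AOM/DSS. The macrophage markers did not: their sum was highest in AOM/DSS replicate 1 (76.5 FPKM, against 49.1 in replicate 2). Without Cd14 it was highest in replicate 3 (21.6 FPKM), the AOM/DSS library with the lowest Tgfb1. Of these markers 5, 3 and 6 passed the filter for macrophages, T cells and B and plasma cells; limma called none of those in any comparison, and the others were not tested. Their part in the Tgfb1 values was not tested.

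**Figure D3:**
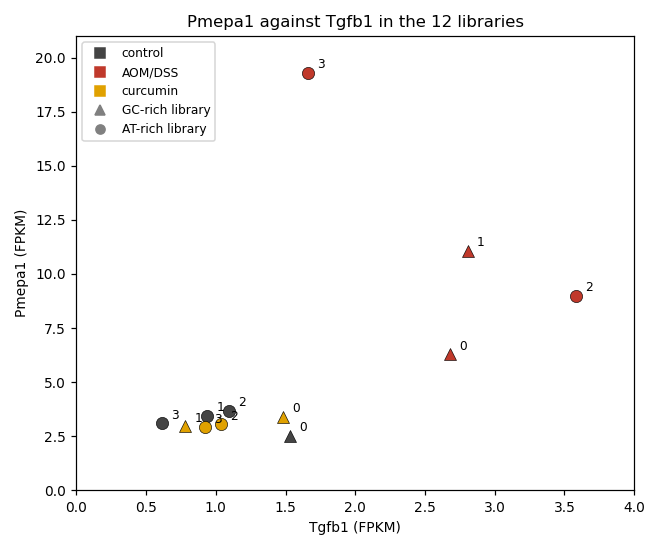
Pmepa1 (y axis, FPKM) against Tgfb1 (x axis, FPKM) in each of the 12 libraries, coloured by group, with the replicate number beside each point; triangles are GC-rich and circles AT-rich libraries. The 4 AOM/DSS libraries lie apart from the other 8, and replicate 3 pairs the highest Pmepa1 (19.3) with the lowest Tgfb1 of its group (1.66).

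Bmp2, a BMP ligand made by the surface epithelium of the colon, went the other way in its values. It was at 36.8, 31.5, 24.6 and 35.04 FPKM in control, 19.9, 22.0, 22.7 and 17.1 in AOM/DSS and 38.4, 20.95, 24.3 and 30.8 in curcumin. All AOM/DSS libraries were below all control libraries, as for 3.63% of tested genes, and curcumin overlapped both groups. Group means were 32.0 ± 5.37, 20.4 ± 2.54 and 28.6 ± 7.70 FPKM (SD, n = 4). The difference from control was -0.61 (SE 0.18, limma adjusted p = 0.139) in AOM/DSS and that of curcumin from AOM/DSS 0.44 (SE 0.18, adjusted p = 0.284), so neither passed. Of the 6 endothelium markers only Pecam1 passed the filter, at a mean of 3.70, 2.03 and 3.96 FPKM in control, AOM/DSS and curcumin (-0.66, limma adjusted p = 0.142, and 0.75, adjusted p = 0.0997). The sum over all 6, most of it Pecam1, was 3.69 to 8.18, 1.91 to 5.22 and 4.02 to 5.27 FPKM. Without Pecam1, a split made after seeing the values, the other 5 summed to 0.62 to 3.37 FPKM in control, 0.872 to 2.64 in AOM/DSS and 0.594 to 0.889 in curcumin. Cdh5, Kdr, Tie1 and Emcn had lower means in curcumin than in AOM/DSS, opposite to Pecam1, and Kdr, Tie1 and Emcn were at 0 in 2, 1 and 3 libraries. The remaining marker, Vwf, was slightly higher in curcumin, as Pecam1 was. Its means were 0.537, 0.539 and 0.589 FPKM in control, AOM/DSS and curcumin. Any part of such cells in the Bmp2 values was not tested.

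Neither receptor was called in any comparison, and Tgfbr2 had its lowest values in curcumin. Tgfbr2 was at 23.3, 20.3, 18.8 and 22.6 FPKM in control, 15.9, 17.5, 20.6 and 22.0 in AOM/DSS and 15.6, 13.1, 15.6 and 16.4 in curcumin. Curcumin lay below control in every library, as it did for 4.55% of tested genes, and AOM/DSS overlapped both. The difference between curcumin and control was -0.46 (SE 0.13, limma adjusted p = 0.161, 0.0341 to 0.293 over 13 other settings), and with library weights it passed. Against AOM/DSS it was -0.30 (adjusted p = 0.282), and AOM/DSS differed from control by -0.16 (adjusted p = 0.632). Bmpr1a had group means of 18.4 ± 2.11, 18.1 ± 5.03 and 16.8 ± 3.98 FPKM, with differences between -0.14 and -0.06 whose 95% intervals stayed within -0.58 and 0.38.

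Smad7, the feedback inhibitor of both branches, was not called. It was at 15.3, 15.7, 12.3 and 15.8 FPKM in control, 14.04, 15.2, 19.3 and 13.7 in AOM/DSS and 15.8, 10.8, 9.01 and 10.97 in curcumin. The groups overlapped, with differences of 0.06 in AOM/DSS against control (95% interval -0.29 to 0.41, limma adjusted p = 0.901), -0.40 in curcumin against AOM/DSS (adjusted p = 0.271) and -0.34 in curcumin against control (adjusted p = 0.425). With library weights the last pair passed (-0.54, adjusted p = 0.0495, and -0.53, adjusted p = 0.045). Smad6, the inhibitor of the BMP branch, was at 7.16, 5.37, 3.11 and 4.66 FPKM in control, 8.20, 7.52, 4.25 and 3.29 in AOM/DSS and 8.63, 5.17, 2.42 and 2.31 in curcumin. Its differences were 0.14, -0.35 and -0.21 (limma adjusted p = 0.903, 0.719 and 0.851), and the spread within each group was larger than any of them.

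Of the BMP targets, Id1 was at 265, 165, 182 and 225 FPKM in control, 271, 393, 168 and 90.1 in AOM/DSS and 380, 186, 101 and 101 in curcumin. The highest and lowest libraries of all, 393 and 90.1, were both from AOM/DSS, and this ratio of 4.36 within a group exceeded that of 96.2% of tested genes. Id3 was at 69.9, 49.8, 31.6 and 53.4 FPKM in control, 91.4, 94.8, 58.5 and 43.9 in AOM/DSS and 93.9, 48.9, 23.8 and 24.7 in curcumin. Neither gene differed beyond this spread: the differences in AOM/DSS against control were -0.04 for Id1 (95% interval -1.03 to 0.95) and 0.47 for Id3 (-0.40 to 1.34), and those of curcumin against AOM/DSS -0.29 and -0.74 (limma adjusted p = 0.836 and 0.425). Id2, which is expressed well below them, was at 12.5, 25.7, 20.3 and 22.6 FPKM in control, 22.03, 11.5, 24.2 and 24.95 in AOM/DSS and 17.5, 10.5, 17.2 and 14.9 in curcumin, with differences of 0.01, -0.41 and -0.39 (adjusted p = 0.99, 0.516 and 0.57).

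Id1, Id3 and Smad6 shared a split of libraries inside the groups, though not their full order. In each of the 3 groups, every GC-rich library was above every AT-rich library for these genes, as for 8.79% of tested genes. In AOM/DSS the means of GC-rich and AT-rich libraries were 332 and 129 FPKM for Id1, 93.1 and 51.2 for Id3 and 7.86 and 3.77 for Smad6, and in curcumin they were 283 and 101, 71.4 and 24.2, and 6.90 and 2.37. Bmpr1a had the opposite order in each group, as for 8.31% of tested genes, and the other 6 genes overlapped. The transcripts of Smad6, Id3 and Id1 have a GC content of 60.8%, 55.6% and 54.7%, above 97.2%, 81.0% and 76.5% of tested genes with a value, and Bmpr1a, at 41.3%, is above 9.8%. Smad7 (56.9%) and Pmepa1 (54.5%) are in the same range of GC content, but their libraries overlapped. With the GC kind of the library as a covariate, none of Id1, Id3 and Smad6 passed in any comparison, and Id3 in curcumin against AOM/DSS came to -0.74 (limma adjusted p = 0.117). The GC kind was set from the values of all genes, so this separation is a description, and what lies behind it was not tested.

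The wider pathway was read from 8 lists that held 91 other genes, of which 50 passed the filter. In AOM/DSS against control 0 were called higher and 1 lower, and in curcumin against AOM/DSS and against control limma called 0 in either direction. At an unadjusted p under 0.05 limma had 5, 6 and 9 of the 50, beside 13.5%, 14.5% and 12.2% of all genes, and voom called 1 (again Neo1), 0 and 0. The median log2 difference of the 50 was -0.00, -0.12 and -0.14. In curcumin against control, 12 of the 50 had a value above 0 and 38 below, while 52.5% of all tested genes had one above 0. The gene called was Neo1, the receptor neogenin, which binds the BMP co-receptors of the repulsive guidance family. Neo1 was at 29.4, 29.5, 20.9 and 29.5 FPKM in control, 20.3, 15.6, 17.6 and 16.2 in AOM/DSS and 20.2, 17.8, 18.9 and 19.99 in curcumin. It fell by 0.62 in AOM/DSS on the log2 scale (SE 0.13, limma adjusted p = 0.04), and the values of curcumin stayed near those of AOM/DSS (0.14, adjusted p = 0.683). The call ended with the replicate block (adjusted p = 0.0681), with a common FPKM sum (0.0925), with the replicate block and the GC covariate together (0.0981) and in the fit of the compared groups alone (0.136). It also ended without any of 10 of the 12 libraries in turn (highest adjusted p = 0.149), all but control 2 and AOM/DSS 0.

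The SMADs that carry the signal were not called. Of the 6 besides the inhibitory ones, 5 were tested and Smad9 was below the filter; limma and voom called 0, and at an unadjusted p under 0.05 limma had 1, 2 and 4 of the 5 in the 3 comparisons, beside the same shares of all genes (13.5%, 14.5% and 12.2%). In AOM/DSS the largest differences were those of Smad2 (-0.42, limma adjusted p = 0.0912) and Smad3 (-0.21, adjusted p = 0.476). The 4 AOM/DSS libraries were all below the controls for Smad2, as for 3.63% of tested genes. In curcumin against AOM/DSS, Smad3 was at -0.25 (adjusted p = 0.357) and Smad2 at 0.06 (adjusted p = 0.863). The largest differences there, named after their values were seen, were those of Smad4, the partner of all signalling SMADs (-0.44, adjusted p = 0.152), and Smad1 (-0.34, adjusted p = 0.254). All curcumin libraries were below all AOM/DSS libraries for Smad4, as for 4.27% of tested genes. The median of the 5 was -0.06 in AOM/DSS against control, -0.25 in curcumin against AOM/DSS and -0.36 in curcumin against control, where all 5 values were below 0. In that comparison Smad4 was at -0.50 (limma adjusted p = 0.158) and Smad3 at -0.46 (adjusted p = 0.14). Smad2 was at -0.36 there (limma adjusted p = 0.217). Smad2, Smad3 and Smad4 each had every curcumin library below every control, as for 4.55% of tested genes. Of 14 tested regulators of SMADs inside the cell, Tgif1, a corepressor (0.59, adjusted p = 0.375), and the ubiquitin ligase Nedd4l (-0.29, adjusted p = 0.428) had the largest differences in AOM/DSS, and with curcumin they were at -0.27 and 0.01 (adjusted p = 0.721 and 0.992). Skil, a corepressor that TGF-beta induces and that is on the target list too, had the largest difference of the list with curcumin and was named after its values were seen. Skil was at 11.1 to 17.6 FPKM in control, 14.1 to 22.5 in AOM/DSS and 8.17 to 11.1 in curcumin, all curcumin libraries below all AOM/DSS libraries (-0.69, limma adjusted p = 0.0761, 0.0189 to 0.113 over 13 other settings, of which 2 passed). Such separation was found for 4.27% of tested genes.

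Most ligands and antagonists of the pathways were below the filter in these scrapings. Of 16 genes for TGF-beta and activin ligands and their activation, 5 were tested, of 8 BMP ligands 4, and of 13 extracellular antagonists 3. Limma and voom called 0 of them, and limma had 1 of them at an unadjusted p under 0.05, in curcumin against AOM/DSS. Thrombospondin 1 (Thbs1), which activates latent TGF-beta, had the largest difference of the first list. It was at 0.69 in AOM/DSS and -0.76 with curcumin (limma adjusted p = 0.424 and 0.344). With curcumin it passed when AOM/DSS replicate 1 was left out (limma adjusted p = 0.039). Itgav, an integrin chain that binds latent TGF-beta, followed (0.22 and -0.40, adjusted p = 0.72 and 0.442). Bmp3 (-0.40 and 0.26, adjusted p = 0.716 and 0.834) and Bmp8b (0.18 and 0.05, adjusted p = 0.833 and 0.965) led the BMP ligands. Bmp3 was uneven in AOM/DSS, at 7.957, 3.851, 5.855 and 24.55 FPKM in replicates 0 to 3, beside 6.54 to 15.3 in control. Its difference from control ran from -0.89 to -0.088 without 1 library in turn. The decoy receptor Bambi (0.22 and -0.04, adjusted p = 0.685 and 0.95) and the matrix proteoglycan Dcn (-0.14 and -0.92, adjusted p = 0.937 and 0.477) led the antagonists. Dcn is also a fibroblast marker, and the sum over the 8 fibroblast markers was 2.84 to 17.5 FPKM in control, 4.91 to 28.1 in AOM/DSS and 2.06 to 7.37 in curcumin. Of 9 tested receptors and co-receptors, Acvr1b, an activin receptor, came after Neo1 (-0.42 and 0.02, adjusted p = 0.33 and 0.974).

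**Figure D4:**
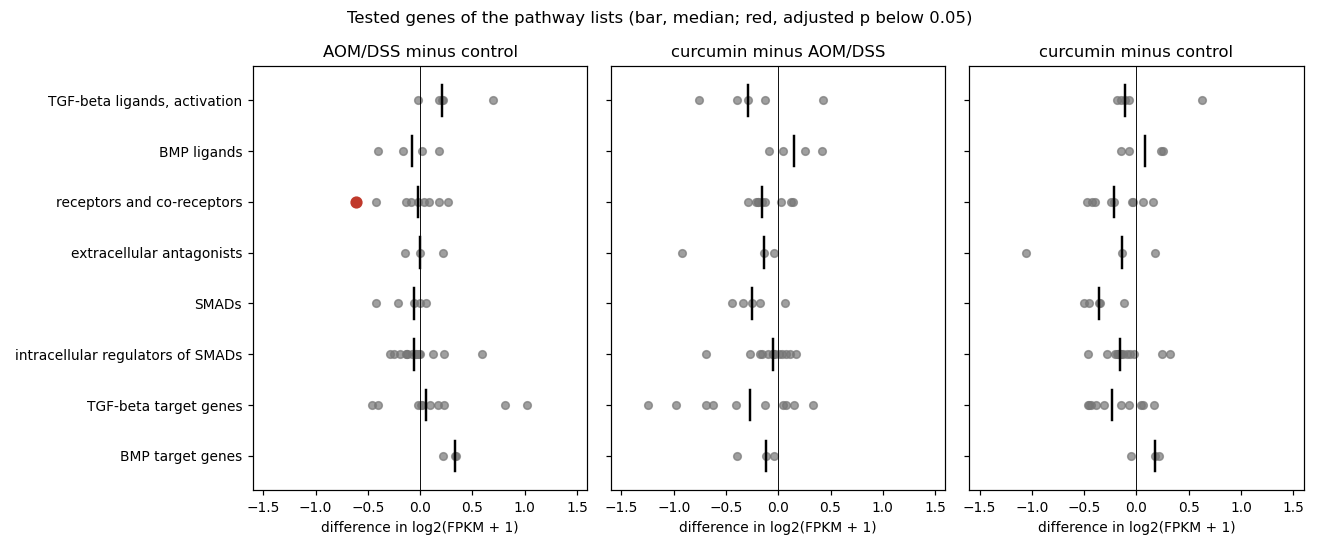
Difference in log2(FPKM + 1) (x axis) of each tested gene of the 8 pathway lists (y axis) in the 3 comparisons; the black bar is the median of the list and red marks an adjusted p below 0.05. The only red point is Neo1, at -0.62 in AOM/DSS against control.

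Other targets of the pathways did not pass either. Of 10 tested TGF-beta targets limma and voom called 0, with 2 in AOM/DSS against control and 3 in either curcumin comparison at an unadjusted p under 0.05, a level that 12.2% to 14.5% of all genes reached. Jun, a subunit of AP-1 (1.02 in AOM/DSS and -0.98 with curcumin, limma adjusted p = 0.123 and 0.144), and Tgfbi, a secreted matrix protein (0.82 and -1.25, adjusted p = 0.656 and 0.435), had the largest differences in AOM/DSS. In curcumin against AOM/DSS Jun passed in 1 of 13 other settings, that with library weights (limma adjusted p = 0.0152). In AOM/DSS against control 7 of the 10 had a value above 0 and 3 below. Bhlhe40, named after its values were seen, was among those below (-0.46, limma adjusted p = 0.0595). Its 4 AOM/DSS libraries were all below control, as for 3.63% of tested genes, and with curcumin it stayed near them (0.07, limma adjusted p = 0.826). In curcumin against AOM/DSS 4 of the 10 targets had a value above 0 and 6 below, while 49.1% of all tested genes had one above 0. The median of the 10 was 0.06 in AOM/DSS against control and -0.27 in curcumin against AOM/DSS. Of 3 tested BMP targets besides the members 0 were called by limma or voom and 0 had an unadjusted p under 0.05, with Id4 at 0.34 and -0.40 (adjusted p = 0.517 and 0.41) and Atoh8 at 0.34 and -0.12 (adjusted p = 0.461 and 0.831). Jun was at 29.9, 24.96, 19.8 and 27.6 FPKM in control and 45.6, 68.9, 69.3 and 34.04 in AOM/DSS, all above control, as for 2.38% of tested genes.

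One library, AOM/DSS replicate 3, stood apart in several genes of the pathways. Tgfbi was at 40.3 FPKM there and at 1.07 to 2.58 in the other 11 libraries, and Thbs1 was at 13.9 there and at 1.97 to 7.17 elsewhere. Among the genes below the filter, fibronectin (Fn1) was at 8.39 FPKM from 1055 reads in this library, against 0.57 at most in the others, and Ctgf, a matricellular TGF-beta target, was at 2.31 against 0.806 at most. The ligand Gdf11 (3.402), the BMP modulator Bmper (1.23) and the BMP target Msx1 (1.49) were likewise highest there, with at most 0.337, 0.155 and 0.111 FPKM in any other library. These 5 genes below the filter were named after their values were seen. Of the 38 pathway genes below the filter and above 0, 24 had their highest value in this library, which held the highest value for 21.2% of all such genes. It was also the highest library for Pmepa1 and for the fibroblast and smooth muscle markers (28.1 and 23.0 FPKM), and the lowest of all 12 for Id1. The part of such cells in these values was not tested.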

How the data were processed

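Total RNA of scraped colon epithelial cells was sequenced in 12 libraries, 4 per group. The deposited values are FPKM per gene symbol; build mm9 and, with no role or order, featureCounts 1.5.1, Bowtie2 2.2.6, R 3.4.0, DESeq2 1.14.1, TopHat2 2.1.1 and Picard are listed in the submitters' processing notes. The strand setting and the annotation are not given in the sources used here. All 19233 genes above 0 had deposited FPKM that were whole multiples of a step per gene and library (tolerance 0.001), which gave read numbers.

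Genes with at least 1 FPKM in 4 libraries (12052) were fitted as log2(FPKM + 1) in limma 3.58.1 under R 4.3.3, all 12 libraries in 1 model with a mean per group (9 residual degrees of freedom), an intensity trend in eBayes and Benjamini-Hochberg adjustment, threshold 0.05. The script was tested on simulated data, with noise drawn independently for each library. These held no GC or replicate pattern, so that test does not show how such patterns affect the calls. GC content came from the longest GENCODE M21 transcript, for 99.3% of tested genes. GC-rich libraries are those in which departures from each gene's mean correlate positively with its GC content. Members and lists were chosen with earlier results of these data known. Named were the 10 members, called genes of each list and otherwise its 2 largest differences in AOM/DSS, and the 5 genes most like Pmepa1. Skil, Smad4, Smad1 and Bhlhe40 were added after seeing their values, and the alternatives were not read for Bhlhe40. Alternatives changed the pseudocount (0.1, 0.5), filter, scaling, block, GC covariate, trend, weights, groups fitted, test (voom on recovered reads) or left out 1 library. Same-numbered libraries did not deviate together in every pair (r from -0.33 to 0.46), so numbers were not taken as pairs. Between AOM/DSS and curcumin, though, r was above 0 at each number (0.04, 0.35, 0.30 and 0.36 for 0 to 3). In these groups the number also goes with the GC kind, replicates 0 and 1 being GC-rich. The replicate block is therefore given as an alternative.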

Additional observations from a re-analysis of the deposited data

Results flagged for a closer look

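Smad7 in control replicate 2, at 12.31 FPKM, stood apart from the other 3 control libraries, which lay between 15.3 and 15.8 FPKM; its gap to them was 0.873 of the range of the group. Of the 30 groups of 4 examined (10 genes in 3 groups) this was the 1 so marked, where chance marks about 1 in 20.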

How the results depend on the processing

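The call of Pmepa1 held under 12 of 13 other settings in AOM/DSS against control and 13 of 13 in curcumin against AOM/DSS, and without each of the 12 libraries in turn in both (1.20 to 1.69 and -1.73 to -1.23). Members called in AOM/DSS against control, 1 of 10, became 2 with no trend or with library weights and 0 in the fit of the 2 groups compared; in curcumin against AOM/DSS, 1 became 2 with the GC covariate and 3 with library weights; in curcumin against control, 0 became 2 with library weights. They were 0 in the AT-rich or the GC-rich libraries alone, added after seeing the data, and leaving out 1 library gave 1 to 2 in the first pair of comparisons. The added call was Tgfb1 in the first pair of comparisons, with Smad7 under library weights in curcumin against AOM/DSS, and Smad7 and Tgfbr2 in curcumin against control. With the replicate block the members called stayed at 1, 1 and 0; over all genes the calls went from 153 to 82, from 130 to 86 and from 17 to 2, and the numbers are not known to pair the mice. Calls over all genes also went to 238, 272 and 40 with the GC covariate, 288, 468 and 491 with library weights, 54, 85 and 23 in the fit of the groups compared, 7 in curcumin against control with no filter, 11 there with pseudocount 0.1, 1 there with the replicate block and GC covariate, and 4 to 35 there without 1 library; without 1 library they ran from 53 to 201 and from 48 to 149 in the other comparisons.

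Differences not past the threshold that changed sign were near 0 in most cases, and the cause was not tested. In AOM/DSS against control they were Smad6 (-0.096), Bmpr1a (0.068) and Smad1 (0.035) with the GC covariate, Smad1 with a common sum (0.022), block and GC covariate (0.086), library weights (0.051), voom (0.0026) or in GC-rich libraries (0.15), Bmpr1a (0.10) with the block and GC covariate, and Dcn with library weights (0.36) or voom (0.042). In the AT-rich libraries alone they were Smad6 (-0.16), Tgfbr2 (0.053), Bmpr1a (0.17), Bmp3 (0.12) and Dcn (0.51), and in the GC-rich ones Smad7 (-0.067), Id1 (0.30), Bambi (-0.096), Tgfbi (-0.47) and Atoh8 (-0.11). In curcumin against AOM/DSS they were Acvr1b (-0.039) and Nedd4l (-0.0554) with a common sum, Bmpr1a (0.065), Bmp8b (-0.061), Acvr1b (-0.0165) and Nedd4l (-0.11) with weights, Bmp3 (-0.31), Bmp8b (-0.46) and Nedd4l (-0.15) in AT-rich and Bambi (0.068) and Tgif1 (0.10) in GC-rich libraries. In curcumin against control they were Tgfb1 with a common sum (-0.014), quantiles (-0.042) or the GC covariate (-0.033), Pmepa1 with the GC covariate (0.0395), Bmpr1a with weights (0.017), with block and GC covariate (0.0201) or in AT-rich libraries (0.068), and Pmepa1 (0.24), Tgfb1 (-0.27), Id1 (0.0062) and Id2 (0.10) in GC-rich libraries.

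Without 1 library the sign also changed, over these ranges: in AOM/DSS against control Smad6 -0.037 to 0.34, Smad7 -0.0375 to 0.12, Smad1 -0.088 to 0.058, Bmpr1a -0.18 to 0.13, Id1 -0.36 to 0.34, Id2 -0.19 to 0.26, Bmp8b -0.021 to 0.375, Dcn -0.59 to 0.26 and Tgfbi -0.16 to 1.18; in curcumin against AOM/DSS Bmpr1a -0.27 to 0.042, Id1 -0.69 to 0.034, Bmp3 -0.056 to 0.74, Bmp8b -0.12 to 0.25, Acvr1b -0.0896 to 0.12, Bambi -0.20 to 0.10 and Nedd4l -0.0904 to 0.084; in curcumin against control Pmepa1 -0.11 to 0.025 and Tgfb1 -0.093 to 0.12.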
